A study of Rattus norvegicus with 6 samples.

Results

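MicroRNA genes encode hairpin-shaped precursors from which short regulatory RNAs are cut. The genes described here are the 118 of 363 measured microRNA genes chosen by their mean deposited log2 signal over the 3 control arrays, which had to be at least 6.5, among 18166 genes tested in all. That signal, which lay between 6.52 and 9.90 with a median of 7.42, is therefore given as a description, with no test. Membership was read from the gene symbols of the array's annotation (symbols that begin with Mir and a digit, or with Mirlet7), and each of these 118 genes had a single probe set. A further 21 probe sets carry a microRNA symbol beside another symbol and were left out.

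RNA came from primary hippocampal neurons of rat embryos at day 18, kept in medium with the nucleoside analogue FUDR (10 µM), which holds back dividing cells. On day 4 in vitro the cultures received an adeno-associated virus (1800000 infectious units per ml). The virus expressed a short hairpin RNA (shRNA), either a control or one aimed at Ncoa3, a coactivator of nuclear receptors, and the cultures were lysed on day 14 in vitro. Each of 3 numbered experiments gave 1 control shRNA and 1 Ncoa3 shRNA array, so both groups share the virus, the drug and the times, and n = 3 in each. The share of neurons infected and the promoter driving the shRNA are not stated in the labels. The measurement was made on total RNA of whole cultures, so that fewer cells of a type and less RNA per cell cannot be told apart.

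As background, a microRNA gene is transcribed as a long primary transcript, often from an intron of a host gene, and the Microprocessor (Drosha with Dgcr8) frees the hairpin. Dicer1 then cuts the hairpin to the mature microRNA, which guides an Argonaute protein to messenger RNAs. Pairing rests mainly on the seed, bases 2 to 8 of the mature sequence. In neurons microRNAs such as miR-124, miR-9, miR-132, miR-134 and miR-138 are known for roles in differentiation and in dendritic spines. The files do not say whether a probe set of a microRNA gene reads the primary transcript, the hairpin or the mature RNA.

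The mature sequences below, from RefSeq (build GRCr8), carry the comparisons that follow, with the seed in capitals. The table of sequences matched 112 of the 118 genes, and 109 of them have a mature sequence in it, 178 sequences in all with 161 distinct seeds. Only 15 seeds occur in more than 1 of these genes, and 27 genes share a seed with another. The first set is shown because separate genes encode the same mature RNA or the same seed. Mir9-1, Mir9-2 and Mir9-3 all encode miR-9a, both Mir138 genes encode miR-138, both Mir129 genes miR-129 and both Mir194 genes miR-194. The genes listed as Mir8 and Mir9 encode miR-7a and miR-7b in RefSeq and are no miR-9 genes.
miR-9a-5p: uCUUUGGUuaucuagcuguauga
miR-138-5p: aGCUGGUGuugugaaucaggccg
miR-129-5p: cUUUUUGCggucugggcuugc
miR-194-5p: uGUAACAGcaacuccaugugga
miR-7a-5p: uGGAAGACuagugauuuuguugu
miR-7b: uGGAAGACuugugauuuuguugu
miR-181c-5p: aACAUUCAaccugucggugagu
miR-181d-5p: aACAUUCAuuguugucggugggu

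The next set belongs to further genes that passed the test of Ncoa3 shRNA against control. They do not share a seed with each other.
miR-667-3p: uGACACCUgccacccagcccaa
miR-140-3p: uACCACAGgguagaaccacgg
miR-219a-5p: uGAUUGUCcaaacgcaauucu
miR-504: aGACCCUGgucugcacucuguc
miR-212-3p: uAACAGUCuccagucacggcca
miR-431: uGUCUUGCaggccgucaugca
miR-760-3p: cGGCUCUGggucugugggga
miR-666-5p: aGCGGGCAcggcugugagag
miR-487b-3p: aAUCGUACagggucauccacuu

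Across the 6 arrays the deposited log2 signals of the groups differed as a whole. Array medians were 7.08 to 7.25 with control shRNA and 6.81 to 6.97 with Ncoa3 shRNA. The highest signal was 14.05 on every control array and 14.00 on every Ncoa3 shRNA array, and any pair of arrays from the same group shared the exact value of 8680 to 13979 of 36685 probe sets, against 0 to 2 for pairs across groups. How the arrays were processed and the group they belong to therefore cannot be told apart, and p-values leave out any error between the groups' processing. Changes are given from signals put on a common distribution (quantile normalization), as log2 Ncoa3 shRNA minus control, and tested with limma with Benjamini-Hochberg adjustment over all genes at 0.05. Ncoa3 itself had deposited signals of 8.79, 8.88 and 8.37 with control shRNA and 7.43, 7.43 and 7.39 with Ncoa3 shRNA, and it fell 1.96-fold, by 0.97 ± 0.142 (SE) on the log2 scale (limma's adjusted p = 0.00747). Fits that dropped experiment 1 or experiment 2 did not call it (adjusted p up to 0.134). The 9 measured neuron markers stood at 11.74 to 13.24 with control shRNA, astrocyte markers at 9.28 to 10.91 and microglia markers at 5.63 to 7.52.

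The threshold of 6.5 does not by itself mark expression. It was reached by 76.6% of all genes, by 32.5% of microRNA genes and by 176 of 1344 olfactory and vomeronasal receptor genes (13.1%), which neurons of the hippocampus are not known for. The members include microRNA genes known from other tissues. Of 32 measured genes on a list of such genes 9 reached 6.5, among them Mir375 of pancreatic islets at 7.44, Mir200a of epithelia at 6.98, Mir133b of muscle at 6.74 and Mir291a of embryonic stem cells at 6.66. On the other side Mir124-1 and Mir124-3, which with Mir124-2 encode the neuronal microRNA miR-124, stood at 3.49 and 5.07, and Mir128-1 at 5.07. Mir124-2 alone of the 3 was a member, at 7.37. Signals of different probe sets cannot be compared as amounts of RNA. The name "detectable" is therefore not borne out by these values, and the genes are called here by their signal.

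The control signal went with the base composition of the hairpin, which the choice of members did not use. The RefSeq hairpins of the members had a median of 55.6% G and C (range 32.3% to 72.4%, 106 hairpins), against 46.1% for 224 hairpins of the other microRNA genes. Of 39 hairpins with at least 60% G and C, 28 belonged to members (71.8%), and of 39 hairpins with less than 40%, 4 did (10.3%). In between, 21 of 138 hairpins with 40% to under 50% and 53 of 114 with 50% to under 60% did. Over all 330 hairpins Pearson's r between G and C content and control signal was 0.59, a description across genes that share the same arrays and are not independent. Exceptions included Mir9-2, at 8.73 with 36.8% G and C, and Mir9-1, at 7.40 with 40.4%. Median hairpin lengths were close, 90.5 bases in members and 87 in the others. Why signal and composition went together was not tested.

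**Figure D1:**
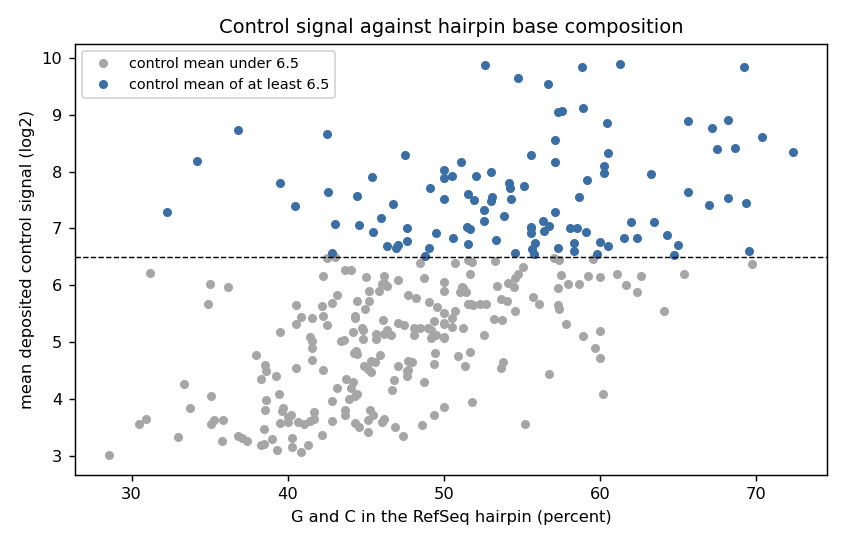
Mean deposited control signal (log2, 3 arrays) of 330 microRNA genes against the percentage of G and C in the RefSeq hairpin, with members in blue and the dashed line at 6.5. Of 39 hairpins with at least 60% G and C, 28 lie above the line, and of 39 with less than 40%, 4 do.

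The 10 members with the highest control signal lay between 8.90 and 9.90, and 1 of them passed the test. Mir185, inside Tango2, had deposited signals of 9.75, 9.63 and 10.31 with control shRNA and 9.39, 9.42 and 9.73 with Ncoa3 shRNA in experiments 1 to 3, and its change was -0.13 ± 0.235 (SE; adjusted p = 0.745). The groups overlapped. Mir22, a broadly expressed microRNA gene, stood at 9.84, 9.73 and 9.38 against 9.42, 9.28 and 8.79, a change of -0.23 ± 0.170 (adjusted p = 0.397). Mir138-2, whose microRNA is known to restrain spine growth, stood at 9.13, 9.05 and 8.96 against 9.05, 9.07 and 8.82, with a change of 0.21 ± 0.0819 (adjusted p = 0.138). None of these 3 genes passed with the experiment as a block either. Given as control and then Ncoa3 shRNA means (SD, n = 3), Mir207 (9.84 ± 0.155 and 9.64 ± 0.0943), Mir139 (9.83 ± 0.0295 and 9.48 ± 0.143), Mir483 (9.12 ± 0.455 and 8.59 ± 0.284), Mir181c (9.07 ± 0.228 and 8.63 ± 0.456) and Mir210, the hypoxia-induced microRNA gene (8.90 ± 0.0816 and 8.78 ± 0.0488), did not pass. Mir3577, inside Tmem94, had the same deposited value of 9.53 on all control arrays and 9.53, 9.60 and 9.46 with Ncoa3 shRNA. It was the gene among these 10 that passed, at 0.26 ± 0.0661 (adjusted p = 0.0440), although its deposited means differed by only -0.0029. Mir761, inside Nrdc, varied most, at 9.34, 8.77 and 11.52 with control shRNA and 8.92, 9.36 and 11.18 with Ncoa3 shRNA, both of its high values in experiment 3.

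**Figure D2:**
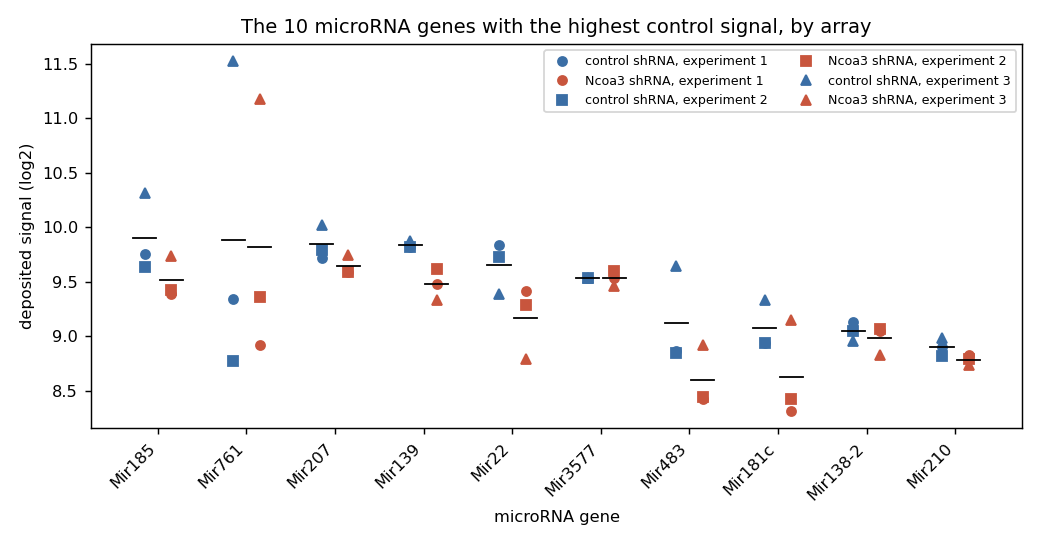
Deposited log2 signal of the 10 microRNA genes with the highest control mean on each of 6 arrays; colours give the shRNA, symbols the experiment, and short black lines the group means (n = 3). Mir761 reached 11.52 and 11.18 in experiment 3 and stayed at or below 9.36 in the others.

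Of the 118 genes 15 passed, 9 higher and 6 lower with Ncoa3 shRNA, which is 12.7% of them. Over all genes tested 19.5% passed (10.5% higher and 9.04% lower). Among the 13789 other genes with the same minimum control signal 12.8% did (6.56% higher and 6.27% lower), so that the share of microRNA genes lay near this background. The median change of the 118 genes was -0.0048, against 0.0084 over all genes. In the deposited values their median difference was -0.29, against -0.25 over all genes, with 107 genes lower and 11 higher. A test of the deposited values called 5 members higher and 49 lower (45.8%), beside 47.2% of all genes (3.97% higher, 43.3% lower) and 41.6% of the other genes with this minimum signal (1.97% higher, 39.6% lower). In the quantile-normalized values the groups of arrays did not overlap for 34 of the 118 genes (28.8%), against 40.5% of all genes at any signal. Blocking on the experiment called 19 members higher and 20 lower (33.1%), including all of the 15. The blocked fit called 39.3% of all genes (20.8% higher, 18.6% lower) and 33.5% of the other genes with this minimum signal (16.9% higher, 16.5% lower).

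The split between higher and lower moved with the arrays that chose the members. With Ncoa3 shRNA 18 of the 118 genes had a mean below 6.5, and 2 other microRNA genes, Mir3558 and Mir668, reached 6.5 there and not with control shRNA. Had the Ncoa3 shRNA arrays chosen the members, 102 genes would have been taken, of which 11 were higher and 2 lower. Just inside the limit lay 6 genes at 6.52 to 6.57 (Mir17, Mir125a, Mir193a, Mir200b, Mir3544 and Mir325). Just outside lay 8 at 6.40 to 6.49 (Mir3560, Mir409, Mir668, Mir337, Mir3085, Mir672, Mir3558 and Mir377).

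**Figure D3:**
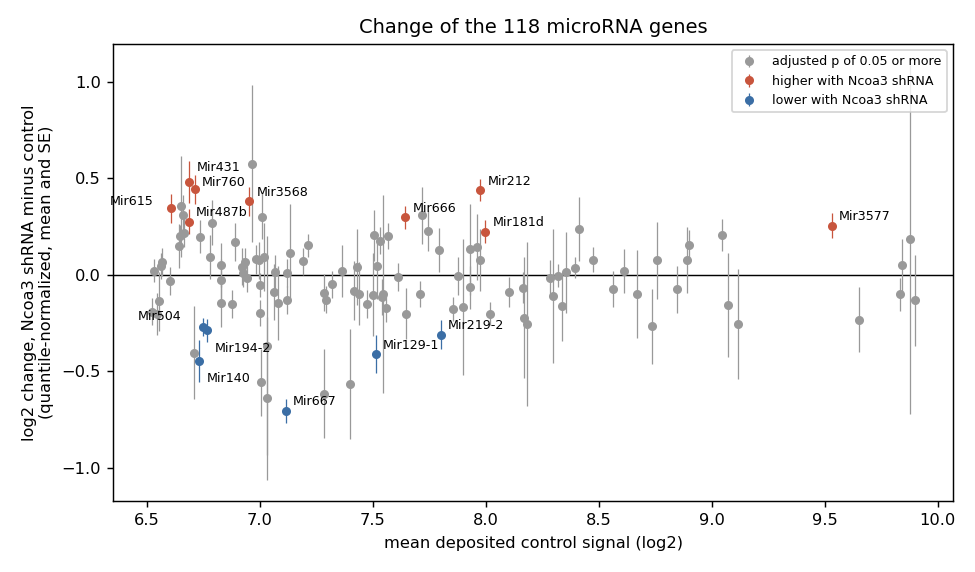
Log2 change (Ncoa3 shRNA minus control, quantile-normalized, with SE) of the 118 microRNA genes against their mean deposited control signal; red marks the 9 higher and blue the 6 lower genes past an adjusted p of 0.05 in limma's test. Mir667 at -0.70 has the lowest value, and most genes lie within 0.25 of 0.

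Mir667, a gene of the imprinted Dlk1-Dio3 region, fell furthest. Its deposited signals were 7.06, 7.08 and 7.21 with control shRNA and 6.13 on every Ncoa3 shRNA array. It was 1.63-fold lower, by -0.70 ± 0.0612 on the log2 scale (SE; limma's adjusted p = 0.00150), and -0.64, -0.68 and -0.79 by experiment. It was the single member past the threshold that differed by at least 1.5-fold, as did 2.22% of all genes (1.16% higher, 1.06% lower). Every fit that left out 1 array kept its call, and the fits without experiment 1 or 2 did not (adjusted p up to 0.0775).

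The other 5 genes that fell were Mir140, Mir129-1, Mir219-2, Mir194-2 and Mir504. Mir140, known from cartilage and lying inside Wwp2, had 6.56, 6.56 and 7.08 with control shRNA and 5.93, 6.01 and 6.08 with Ncoa3 shRNA, a change of -0.44 ± 0.108 (SE; limma's adjusted p = 0.0368). Mir129-1, a neuronal microRNA gene, had 7.47, 7.45 and 7.62 against 6.63, 6.68 and 7.13, a change of -0.41 ± 0.0990 (adjusted p = 0.0354). Its fall was smallest in experiment 3, at -0.23, and its groups did not overlap. Mir219-2, whose microRNA is known from oligodendrocytes and neurons, had 7.72, 7.78 and 7.90 against 7.16, 7.28 and 7.21, a change of -0.31 ± 0.0744 (adjusted p = 0.0347). Mir194-2, known from liver and gut, had 6.73, 6.73 and 6.84 against 6.19 on every Ncoa3 shRNA array, a change of -0.29 ± 0.0602 (adjusted p = 0.0233). Mir504 had 6.68, 6.68 and 6.88 against 6.16, 6.16 and 6.25, a change of -0.27 ± 0.0467 (adjusted p = 0.0129). Of 9 fits that left out an array or an experiment, 6 lost the calls of Mir194-2 and of Mir504. Mir140 and Mir129-1 lost theirs in 7 and Mir219-2 in 8 (limma's adjusted p up to 0.334). Each of these 5 genes kept its sign in all 9 fits. Fits without array 1 or array 2 of either group called fewer genes of any kind, 7.85% to 8.86% of all genes, beside 19.5% with all 6 arrays. A lost call is therefore not evidence against a change.

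Mir212 rose, and it was higher in the deposited values too. The gene is transcribed together with Mir132 from an activity-responsive locus and its microRNA shares the known actions of miR-132 on dendrites. Its deposited signal was 7.98 on all control arrays and 8.13 on all Ncoa3 shRNA arrays, and its change was 0.44 ± 0.0564 (SE; limma's adjusted p = 0.00496), with 0.42, 0.43 and 0.47 by experiment. Mir132 (control mean 6.20, below the limit, and 6.24 under the Ncoa3 shRNA) rose by 0.33 ± 0.0687 (adjusted p = 0.0237), again from values that were the same on all arrays of a group. The spread of both genes within a group thus came from the normalization alone, and their p-values do not measure variation between cultures. Dropping experiment 1 or 2 cost Mir212 its call (adjusted p up to 0.198).

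Mir431, Mir760, Mir3568 and Mir615 were also higher in both scales. Mir431, of the imprinted region, had 6.75, 6.75 and 6.57 with control shRNA and 6.90 on every Ncoa3 shRNA array, and rose by 0.48 ± 0.109 (SE; limma's adjusted p = 0.0288). Mir760 had 6.71 on every control array and 6.87 on every Ncoa3 shRNA array to these digits, and rose by 0.44 ± 0.0746 (adjusted p = 0.0117). Mir3568 had 6.95 against 7.05 and rose by 0.38 ± 0.0742 (adjusted p = 0.0186). Mir615, a gene of the HoxC region, had 6.61 against 6.67 and rose by 0.34 ± 0.0746 (adjusted p = 0.0257). The differences between deposited means of these 4 genes were 0.06 to 0.21, so most of each change is the offset between the groups. Mir666, Mir487b, Mir181d and Mir3577 passed as higher, at 0.30, 0.28, 0.22 and 0.26, while their deposited means differed by only 0.01, -0.0068, -0.06 and -0.0029. Of the 9 fits that left out an array or an experiment, 4 did not call Mir760. The calls of Mir431, Mir3568, Mir615, Mir666 and Mir487b were lost in 6, that of Mir3577 in 7 and that of Mir181d in 8 (adjusted p up to 0.424).

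After quantile normalization each of the 15 genes kept its own sign in all 3 experiments and had groups that did not overlap, which describes genes chosen for passing the test. Their changes were 1.17-fold to 1.63-fold. Of the 15, 2 (Mir212 and Mir3568) had a single deposited value per group, 8 more had a single value in 1 of the groups, and 5 (Mir219-2, Mir666, Mir129-1, Mir504 and Mir140) had more than 1 value in both. Over the 118 genes 11 had a single value per group in both, against 10.7% of all genes. When experiment 3 was left out 27 genes were higher and 23 lower, and when experiment 1 or experiment 2 was left out 0 passed in limma's test, with 11 and 13 genes at an unadjusted p under 0.05. In these fits 8354, 223 and 0 of all genes passed, the last with 3071 genes at an unadjusted p under 0.05.

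**Figure D4:**
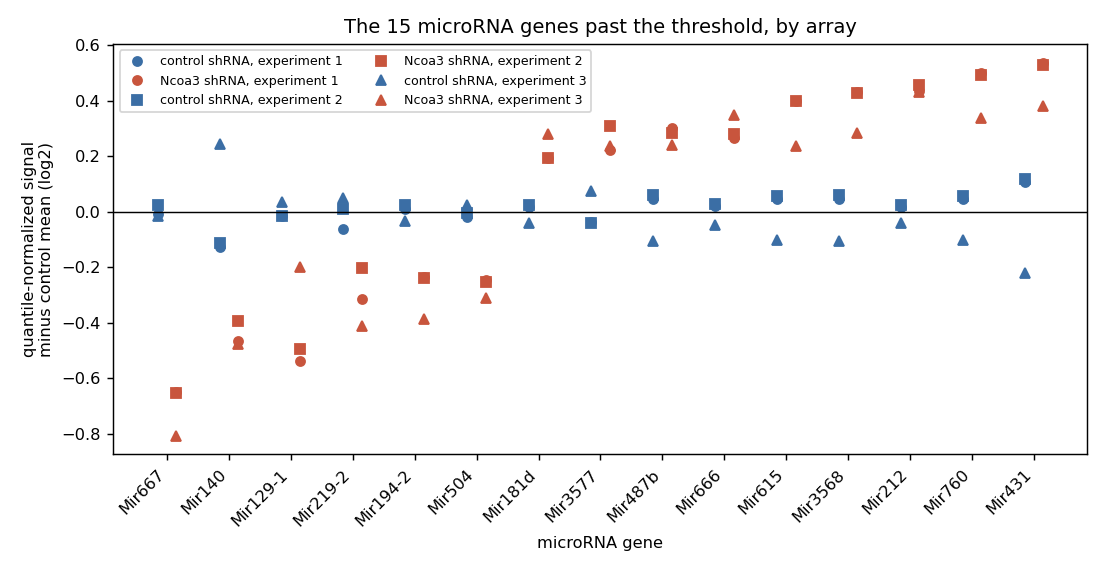
Quantile-normalized log2 signal of the 15 genes past the threshold on each array, less the gene's control mean; colours give the shRNA and symbols the experiment. The control and Ncoa3 shRNA arrays do not overlap for any of the 15, and Mir667 lies lowest with Ncoa3 shRNA.

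Genes that encode the same mature RNA were measured apart and did not all stand at the same change. Mir9-1 had 7.64, 7.53 and 7.03 with control shRNA and 6.87, 6.62 and 6.14 with Ncoa3 shRNA, a change of -0.56 ± 0.286 (SE), with -0.47, -0.62 and -0.60 by experiment. Its limma adjusted p was 0.226 without a block and 0.00492 when experiments were blocked. Mir9-2 had 8.78, 9.10 and 8.32 against 8.20, 8.24 and 8.09, a change of -0.27 ± 0.194 (adjusted p = 0.397, and 0.183 with the block). Mir9-3 had 7.57 on all control and 7.48 on all Ncoa3 shRNA arrays, a change of 0.20 ± 0.0667 (adjusted p = 0.0875, and 0.00960 with the block). Its deposited signal was thus lower with Ncoa3 shRNA and, to these digits, did not vary within a group. The SE and p-values of Mir9-3 therefore do not measure variation between cultures. Against the fall of Mir129-1, Mir129-2 stood at 0.15 ± 0.116 (adjusted p = 0.426), and against that of Mir194-2, Mir194-1 stood at 0.05 ± 0.116 (adjusted p = 0.803). Mir138-1 stood at 0.04 and Mir138-2 at 0.21, and the miR-7 genes listed as Mir8 and Mir9 both at 0.01. Differences between genes of a pair were not tested. In the hairpin table Mir9-2 lies at chr2:15933292-15933378 and Mir9-1 at chr2:175974971-175975059, both on the + strand, and Mir9-3 at chr1:142849400-142849489 on the + strand (GRCr8).

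Among 36 measured genes of the list of neuron-enriched or activity-linked microRNAs 16 reached 6.5, of which 1 was higher (Mir212), 2 were lower (Mir129-1 and Mir219-2) and 13 did not pass. With the block the 16 held 2 higher and 4 lower, the added ones being Mir9-3 (higher, though its deposited signal was lower), Mir9-1 and Mir330. Their median change was -0.03. The other members of that list were Mir124-2, the 3 Mir9 genes, both Mir138 genes, Mir134, Mir129-2, Mir218-1, Mir485, Mir330, Mir181c and Mir150. Mir134, known to limit spine size through Limk1, had 8.14, 7.94 and 7.84 with control shRNA and 7.87, 7.92 and 7.52 with Ncoa3 shRNA, a change of 0.08 ± 0.162 (limma's adjusted p = 0.787). Mir330 was at -0.64, with an adjusted p of 0.349, or 0.0385 if experiments were blocked. Of the let-7 family, 1 of 11 measured genes was a member (Mirlet7a1, at -0.20), and of the Mir17-92 clusters 3 of 14 (Mir17, Mir93 and Mir25), none of them past the test (Mir17 fell with the block). Of the 9 members on the list known from other tissues 1 fell (Mir194-2) and 8 did not pass. Mir140, known from cartilage, also fell but is not on that list. With the block the 9 held 4 higher (Mir200a, Mir133b, Mir291a and Mir290) and 2 lower (Mir194-2 and Mir200b). The 75 members in none of the lists held 5 higher, 2 lower and 68 that did not pass, and 88 of all 103 genes that did not pass lay within 0.25 of 0. Beside the counts of each list, 12.8% of the other genes with this minimum signal passed, or 33.5% with the block (19.5% and 39.3% of all genes). In the deposited values 0 of the 32 measured genes known from other tissues passed as higher and 17 as lower. Mir200a, Mir133b, Mir291a and Mir290 were thus not called higher there. Of the 36 measured genes of the neuron-enriched list 4 were higher and 13 lower there, beside 3.97% and 43.3% of all genes.

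The imprinted Dlk1-Dio3 region on chromosome 6, a long run of microRNA genes known to be expressed from the maternal chromosome in brain, held the clusters with the most members, 11 and 5, of those whose neighbours lie within 10 kb. Of 45 measured genes of its list 16 were members, and 3 of these were higher (Mir431, Mir666 and Mir487b), 1 lower (Mir667) and 12 did not pass. With the block the 16 held 4 higher, Mir1193 being the added one, and 1 lower. Beside these counts, 12.8% of the other genes with this minimum signal passed, or 33.5% with the block (19.5% and 39.3% of all genes). In the deposited values 3 of the 45 measured genes were higher and 23 lower, beside 3.97% and 43.3% of all genes. RefSeq places Mir666 and Mir667, which stood at 0.30 and -0.70, inside the same noncoding gene (LOC102555254). The host of Mir770, the noncoding RNA gene Meg3, stood at -0.11 (adjusted p = 0.823). Members of the region were low in experiment 3 with both shRNAs: 11 of the 16 lay below the mean of experiments 1 and 2 in both groups and 2 above, while of all 118 members 56 lay below and 39 above. The neuron-enriched list had 10 of 16 below and 3 above, and the list known from other tissues 7 of 9 below and 1 above, so this count is not particular to the region. Mir544 had 7.99, 7.96 and 6.68 with control shRNA and 7.72, 7.31 and 6.44 with Ncoa3 shRNA. Mir539 had 8.25, 8.82 and 7.48 against 7.81, 8.02 and 7.08, and Mir382 had 9.02, 8.75 and 8.23 against 8.42, 8.40 and 8.02. In each of these 3 genes experiment 3 was the lowest in both groups. Meg3 was lowest in experiment 3 as well, at 8.54, 8.35 and 7.82 against 8.19, 7.94 and 7.41 in the deposited values.

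**Figure D5:**
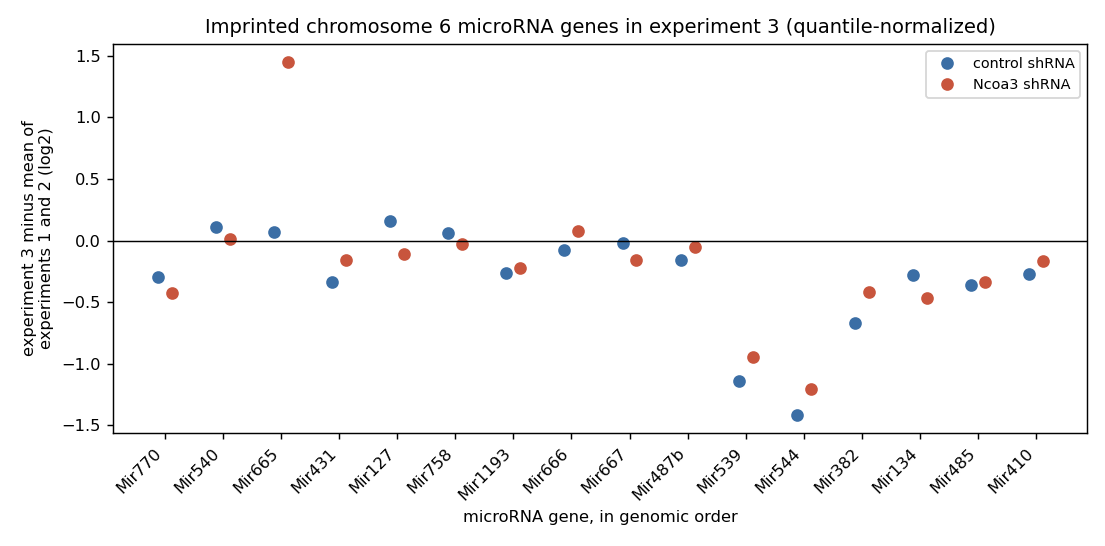
Quantile-normalized log2 signal of experiment 3 minus the mean of experiments 1 and 2, for the 16 members of the imprinted region in genomic order, with control shRNA in blue and Ncoa3 shRNA in red. Mir539 and Mir544 lie lowest, at -1.14 and -1.42 with control shRNA, and Mir665 with Ncoa3 shRNA lies highest at 1.45.

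Among all 118 members, experiment 3 differed from the mean of the others by at least 0.5 in both groups for 9 that were higher and 3 that were lower. Those higher were Mir761, Mir24-1, Mir330, Mir214, Mir483, Mir3597-1, Mir674, Mir764 and Mir301b, led by Mir761 (2.57 in the control and 2.06 in the Ncoa3 shRNA group), and those lower were Mir544 and Mir539 of the imprinted region and Mir9-1. The mean signal of 5 astrocyte markers was also higher in experiment 3, at 10.03 and 10.12 (control and Ncoa3 shRNA, quantile-normalized) against 9.45 to 9.73 in the others, and 0 of these 5 genes passed between the shRNAs. Its part in the microRNA signals was not tested.

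RefSeq places 62 of the 112 matched genes inside another gene of the same strand, and the hosts of 35 were measured, 29 genes in all. Of these hosts 3 rose and 2 fell, or 8 and 4 with the block, beside 19.5% of all genes in either direction (39.3% with the block). All 29 hosts reached 6.5 with control shRNA, and of the genes other than microRNA genes that did, 12.8% passed (33.5% with the block). In the deposited values 1 host was higher and 12 were lower, beside 3.97% and 43.3% of all genes. Pairs of microRNA gene and host had changes of the same sign in 16 of 35, and r between them was -0.14, a description over pairs that share arrays and, in some cases, the host. Both passed in 1 pair: Mir504 at -0.27 lies inside Fgf13, a gene of a growth factor homologue that regulates sodium channels, which fell by 0.26 ± 0.0557 (limma's adjusted p = 0.0243). Mir140 fell while its host Wwp2 stood at 0.24 (adjusted p = 0.165). In 6 pairs the host alone passed. Pde2a, a phosphodiesterase gene that holds Mir139, changed by -0.29 ± 0.0524 (adjusted p = 0.0139), with Mir139 at -0.10. Dalrd3, which holds Mir191 and Mir425, rose by 0.27 ± 0.0620 (adjusted p = 0.0311), with these genes at -0.07 and -0.10. Aopep, an aminopeptidase gene that holds Mir23b and Mir24-1, rose by 0.54 ± 0.0573 (adjusted p = 0.00257) from a single deposited value in each group, with the microRNA genes at 0.13 and -0.37. C12h7orf50, which holds Mir339, rose by 0.38 ± 0.0950 (adjusted p = 0.0399). Deposited control and Ncoa3 shRNA means were 10.22 and 10.26 (Dalrd3), 7.87 and 8.13 (Aopep) and 9.43 and 9.55 (C12h7orf50). Part of each of these rises is therefore the offset between the groups. Of the 9 fits that left out arrays, 2 lost the call of Aopep, 6 those of Dalrd3 and Pde2a and 7 those of Fgf13 and C12h7orf50.

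Genes of the proteins that make and use microRNAs were described from a list of 33 measured genes. Of these 1 rose and 4 fell (2 and 11 with the block), beside 19.5% of all genes in either direction (39.3% with the block). Of the 33 genes 32 reached 6.5 with control shRNA, and of the genes other than microRNA genes that did, 12.8% passed (33.5% with the block). Ddx5, a helicase partner of Drosha, fell by 0.54 (limma's adjusted p = 0.00373), Ddx6, a helicase of the silencing complex, by 0.62 (0.0176), and Fmr1, an RNA-binding protein gene whose loss causes fragile X syndrome, by 0.51 (0.0233). Lin28a, whose product blocks let-7 maturation, fell by 0.31 (0.0177), while Lin28b rose by 0.27 (0.0444). Its deposited means were 6.03 with control shRNA and 6.01 with Ncoa3 shRNA. Of 18 measured textbook targets of neuronal microRNAs 2 rose and 0 fell (6 and 2 with the block), beside 19.5% of all genes (39.3% with the block). Of these 18 targets 17 reached 6.5, so the 12.8% and 33.5% are the closer background here too. In the deposited values 0 of the 18 were higher and 7 lower, beside 3.97% and 43.3% of all genes. The 2 that rose after quantile normalization were the repressor gene Rest at 0.30 (adjusted p = 0.0357) and the let-7 target Trim71 at 0.27 (0.0418). Both were at 6.80 to 7.12 in the deposited group means. All of these calls were lost without experiment 1 and without experiment 2. Without 1 array, 5 fits lost the calls of Lin28b, Rest and Trim71, 4 those of Lin28a and Fmr1 and 3 that of Ddx6.

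Some markers of other cells passed the test. Of 6 microglia markers 2 rose (Cx3cr1 by 0.99 and Aif1 by 0.43) and 0 fell, with list means of 6.02 to 6.12 on the control and 6.28 to 6.51 on the Ncoa3 shRNA arrays (quantile-normalized). Of 5 oligodendrocyte markers 1 rose (Pdgfra) and 2 fell (Mog and Sox10), with list means of 7.75 to 7.79 and 7.72 to 7.77. Of 4 endothelial and fibroblast markers 1 rose (Dcn), with list means of 8.10 to 8.45 and 8.29 to 8.67, and of 9 neuron markers 0 passed. With the experiment as a block the counts were 3 higher for microglia (Csf1r added), 2 higher and 2 lower for oligodendrocytes (Olig2 added as higher), 1 higher and 2 lower for endothelium and fibroblasts (Cldn5 and Col1a1 added as lower) and 1 lower for neurons (Rbfox3). Over all genes 19.5% passed, or 39.3% with the block. Among genes other than microRNA genes with a control mean of at least 6.5, 12.8% passed, or 33.5% with the block. In the deposited values 1 microglia marker was higher and 0 lower, and 1 oligodendrocyte marker was higher and 3 lower. For endothelium and fibroblasts 0 were higher and 2 lower there, and for neurons 0 and 3, beside 3.97% and 43.3% of all genes. The lowest deposited signal on any array was 2.29, so none of these markers is listed at 0. The part of these cells in the microRNA results was not tested, and Mir142 and Mir223, microRNA genes known from microglia and blood cells, stood below the limit at 5.22 and 5.78, with changes of 0.03 (adjusted p = 0.955) and -0.27 (adjusted p = 0.0243).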

How the data were processed

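The authors deposited a log2 signal for each probe set and array. The submitters' processing notes name Affymetrix Expression Console, and no source used here gives its version, settings or normalization. Probe sets were named by the platform annotation: 18511 of 36685 carry 1 symbol, 575 several and 17599 none. The brightest probe set stood for each of 291 genes with several, which left 18166 genes. All 6 arrays were quantile-normalized and fitted with limma 3.58.1 in R 4.3.3 (lmFit, eBayes with trend, two-sided), without a block. The method was tested on simulated data with independent noise on each array and a uniform shift between the groups. The simulated arrays held no experiment effect and no values repeated within a group. That test therefore does not cover the limits on p-values named above. The labels name a shared experiment, and deviations from group means of same-numbered arrays correlated at 0.72, 0.55 and 0.78 over genes, so blocked values stand beside results they alter. Control array 2 with Ncoa3 shRNA array 1 gave 0.50, and control array 1 with Ncoa3 shRNA array 2 gave 0.31. Pairs of array 3 with another number gave -0.73 to -0.53. Among the members control array 2 went with Ncoa3 shRNA arrays 1 and 2 alike (0.73 each). Experiments 1 and 2 were thus less clearly told apart than experiment 3. The labels call the replicates biological but do not say which animals they came from. Microarray number limits the precision. Members and lists were chosen with earlier results of these data known. Given in full are the 10 members with the highest control mean, the 12 past the threshold with the largest change and the members within 0.1 of the limit; the remaining 3 past the threshold and other named members were added after their values were seen. Host genes are RefSeq genes that span a microRNA gene on its strand. Alternatives were the deposited values, median centring, the block, no trend, a minimum mean of 6, averaged probe sets, arrays or experiments left out and other membership rules.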

Additional observations from a re-analysis of the deposited data

How the results depend on the processing

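In the deposited values 5 members were higher and 49 lower, with a median of -0.29, and 8579 of all genes, 16 pathway genes, 7 targets and 13 hosts passed. With the replicate block 19 members were higher and 20 lower, and 7147 genes, 13 pathway genes, 8 targets and 12 hosts passed; deposited values with the block gave 4, 64, 10932, 25, 7 and 16 and a median of -0.29. With median centring 5 members were higher and 5 lower, and 1868 genes, 1 pathway gene, 0 targets and 1 host passed. With a minimum mean of 6 there were 7 higher and 4 lower, 1555 genes, 0 targets and 3 hosts. Members with a control mean of at least 7.5 gave 4 higher and 2 lower, those chosen by the Ncoa3 shRNA arrays 11 and 2, and those by all arrays 10 and 3. Leaving out arrays or experiments gave 0 to 27 members higher, 0 to 23 lower and medians of -0.02 to 0.02. It gave 0 to 8354 genes, 0 to 12 pathway genes, 0 to 8 targets and 0 to 11 hosts, and Ncoa3 at -1.15 to -0.86. Of all 118 members 58 were above 0 after quantile normalization and 11 in the deposited values, so the sign turned for many. Signs were followed gene by gene only for the 15 called members and the 10 with the highest control signal. Among these, the deposited values, with or without the replicate block, turned the sign of Mir3577 (-0.0029), Mir181d (-0.062), Mir487b (-0.0068), Mir761 (-0.058), Mir207 (-0.20), Mir138-2 (-0.066) and Mir210 (-0.12). With arrays or experiments left out, values on both sides of 0 were found among the same genes for Mir185 (-0.29 to 0.11), Mir761 (-0.50 to 1.05), Mir207 (-0.032 to 0.18), Mir483 (-0.43 to 0.043) and Mir181c (-0.44 to 0.019). All 15 called members kept their sign in these fits. The cause was not tested.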

Other observations

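Microarray signals below the limit of 6.5 held further microRNA genes past the test, chosen here after their values were seen. Of the 245 measured microRNA genes under the limit 47 were higher and 42 lower (36.3%, beside 36.5% of olfactory and vomeronasal receptor genes and 19.5% of all genes). With the experiment as a block 75 were higher and 61 lower (55.5%, beside 39.3% of all genes). Both comparison sets include brighter genes, and 176 of the 1344 receptor genes reached 6.5. None of these shares, blocked or not, is therefore like for like. No blocked share of the receptor genes is given here. Mir7-1, a gene of miR-7 that lies inside Hnrnpk, rose by 0.83 (limma's adjusted p = 0.00170), from a deposited mean of 5.47 ± 0.0418 with control shRNA to 6.02 ± 0.0128 with Ncoa3 shRNA (SD, n = 3). Mir137, a regulator of neuronal maturation, rose by 0.39 (adjusted p = 0.00892), from 6.05 ± 0.115 to a single value of 6.16 on all Ncoa3 shRNA arrays.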
